A study of Mus musculus with 6 samples.

Results

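The SPARC, SPOCK and SMOC family is a group of secreted, calcium-binding proteins of the extracellular matrix, described here through its 8 mouse genes Sparc, Sparcl1, Spock1, Spock2, Spock3, Smoc1, Smoc2 and Fstl1. They were chosen by gene symbol, as all 14 spots whose only annotated symbol is a family member, out of 45220 spots and 19077 genes with a fitted value. The choice was made with earlier results on these same arrays known, so the values below are descriptive and none carries a test. Tissue of the future tibia and fibula was microdissected from frozen sections of embryonic hind limbs of Swiss white mice at 3 ages: at 11.5 days post coitum (dpc) it was pre-condensed mesenchyme, at 12.5 dpc it had formed a mesenchymal condensation, and at 13.5 dpc it was a cartilage anlage. The limbs came from separate mice without genetic modification or treatment named in the labels, and the tissue was pooled within an age, from 4 hind limbs at 11.5 dpc, 3 at 12.5 dpc and 4 at 13.5 dpc, which leaves 1 RNA pool per age. Each pool was carried through linear amplification and compared with each of the others on a dye-swapped pair of 2-colour whole genome arrays, 6 arrays in all. Because both arrays of a pair hold the same RNA, their spread is technical and no p-value can be given for a difference between ages.

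The proteins of this family share an extracellular calcium-binding domain and a follistatin-like domain. They belong to the matricellular proteins, which sit in the matrix and tune how cells meet collagens, proteases and growth factors more than they build the matrix itself. In cartilage and bone SPARC is best known as osteonectin, a collagen-binding glycoprotein, whereas the testicans encoded by the Spock genes are proteoglycans, and SMOC1, SMOC2 and FSTL1 have been linked to bone morphogenetic protein (BMP) signalling.

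Between 11.5 and 13.5 dpc the family divided. Sparc and Smoc2 were 4.11-fold and 4.23-fold higher in the cartilage anlagen than in the pre-condensed mesenchyme, while Spock3 was 31.5-fold lower and Smoc1 5.05-fold lower. The fitted values of the other 4 genes, Sparcl1, Spock1, Spock2 and Fstl1, were within 3-fold in all 3 comparisons. The spots of Spock2 disagreed, and the paper lists a Spock2 transcript as changed more than 3-fold between 11.5 and 13.5 dpc. The fitted values of Fstl1 were smaller than their technical errors.

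Sequence upstream of the start site was taken for the 5 of 8 members found in the RefSeq promoter table (GRCm38.p6), and is shown for Sparc and Spock3, which lay on opposite sides of the comparison of 13.5 with 11.5 dpc. Each line holds the 250 bases before the annotated start, 5' to 3' on the strand of the gene, from chr11:55420081-55420330 (minus strand) for Sparc and chr8:62950982-62951231 (plus strand) for Spock3, and capitals mark a match to any of 6 short motifs searched on both strands.
Sparc: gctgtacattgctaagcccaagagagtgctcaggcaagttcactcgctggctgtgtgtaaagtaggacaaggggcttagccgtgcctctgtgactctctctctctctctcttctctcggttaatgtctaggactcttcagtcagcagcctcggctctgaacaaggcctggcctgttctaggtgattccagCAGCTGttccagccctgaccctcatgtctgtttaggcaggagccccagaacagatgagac
Spock3: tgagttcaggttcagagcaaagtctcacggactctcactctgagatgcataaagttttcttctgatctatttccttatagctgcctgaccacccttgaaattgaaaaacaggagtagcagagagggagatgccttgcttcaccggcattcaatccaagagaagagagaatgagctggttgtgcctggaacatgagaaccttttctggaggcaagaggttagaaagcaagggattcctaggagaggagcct
The E box was searched as CAGCTG, which 12.8% of the 27025 promoter windows hold, with 1 window kept per gene. It occurred at a single place in the Sparc window. The Spock3 window held none of the 6 motifs, but the table gives 2 starts for Spock3 and only the first was searched. The other motifs, absent from both windows, were the TATA box, searched as TATAAA and held by 13.0% of windows, and the GC box, searched as GGGCGG and held by 32.9%. The CCAAT box was searched by the letters of its name, which 34.5% of windows hold. The core bound by SOX factors was searched as ACAAT, found in 28.3%, and the AP-1 site as TGANTCA, found in 6.87%. No motif contains another. GC content was 54.0% in the Sparc window and 46.4% in that of Spock3, against a median of 52.0% over all windows. A match of letters is a description and not a binding site, and the annotated start need not be that of the transcript on the array.

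Values are log2 ratios of the later over the earlier age after each array was centred on its median. A combined value per gene was fitted to all 6 arrays, and the technical error given beside it is how far each array of the dye-swapped pair for those ages lay from their average. A gene was called higher or lower when the fitted ratio reached 3-fold, which is 1.58 on the log2 scale. Signal brightness was not used here, so levels are given relative to the age at which each gene was lowest, and no gene's level was set against that of another.

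**Figure D1:**
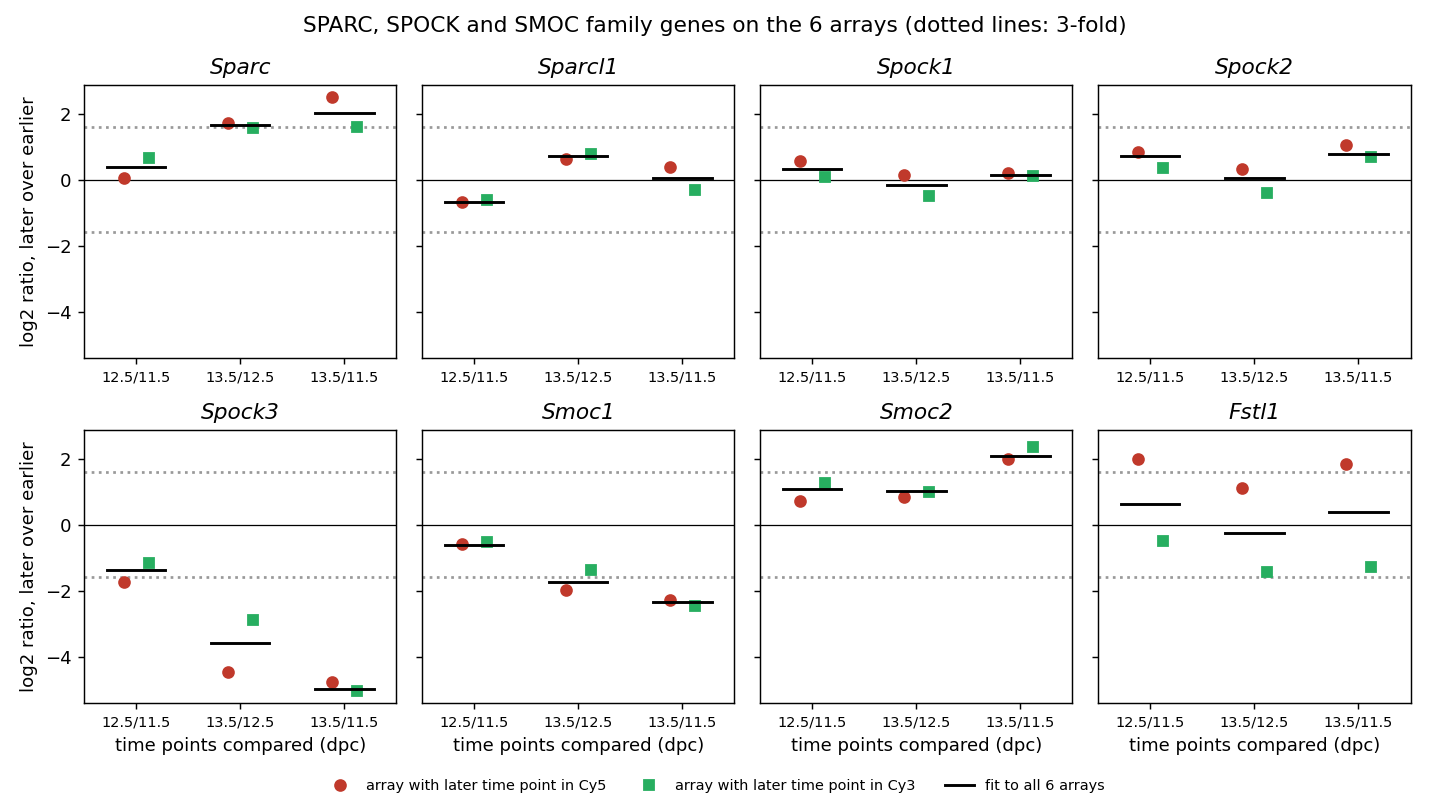
Centred log2 ratio of the later over the earlier age (vertical axis) for the 8 genes on the 6 arrays, grouped by the pair of ages compared, with circles for arrays that had the later age in Cy5, squares for the dye swap, bars for the fit to all 6 arrays and dotted lines at 3-fold. Spock3 and Smoc1 lie below 0 and Smoc2 lies above 0 on all 6 arrays, while the 2 arrays of each pair for Fstl1 lie on opposite sides of 0.

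Sparc encodes osteonectin, which binds fibrillar collagens and calcium. On the 2 arrays that set 13.5 against 11.5 dpc directly its log2 ratios were 2.50 and 1.61. Those for 13.5 against 12.5 dpc were 1.73 and 1.57, and those for 12.5 against 11.5 dpc were 0.07 and 0.65. All 6 arrays gave the higher level at the later age, with the smallest difference in the earlier step. The fitted log2 difference between 13.5 and 11.5 dpc was 2.04 with a technical error of 0.45, higher than 98.3% of all genes. The later step from condensation to cartilage held 81.8% of it, with a fitted log2 difference of 1.67, against 0.37 in the earlier step. Expressed as levels, Sparc stood at 1.29 times its 11.5 dpc value at 12.5 dpc and at 4.11 times that value at 13.5 dpc. The later step lay close to the 3-fold threshold, and without the first array of 13.5 against 11.5 dpc it came to 1.55, below that threshold. Both Sparc spots gave the same course, with log2 differences of 2.28 and 1.80 between 13.5 and 11.5 dpc.

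Sparcl1 encodes hevin, the closest relative of SPARC in sequence and a matrix glycoprotein also made by blood vessels. Its log2 ratios were -0.69 and -0.62 at 12.5 against 11.5 dpc and 0.64 and 0.79 at 13.5 against 12.5 dpc. The arrays of 13.5 against 11.5 dpc gave 0.39 and -0.32 and so differed in sign. After centring, Sparcl1 was thus lowest at the condensation stage on all 4 arrays that included it. Neither step reached 3-fold, with fitted log2 differences of -0.66 and 0.70. Over the whole interval the fitted log2 difference was 0.04, smaller than the technical error of 0.36. Within the same array, where centring plays no part, the log2 ratio of Sparc exceeded that of Sparcl1 on 6 of 6 arrays, by 2.11 and 1.93 for 13.5 against 11.5 dpc. The fitted gap over that interval corresponded to a 3.98-fold change in the ratio of Sparc to Sparcl1. Of 12 endothelial markers, none was called higher and 1 lower between 11.5 and 13.5 dpc, and their median log2 difference was -0.69. Their medians were -0.42 in the earlier step and -0.26 in the later step, where Sparcl1 was above 0. The part of these cells in the Sparcl1 values was not tested.

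**Figure D2:**
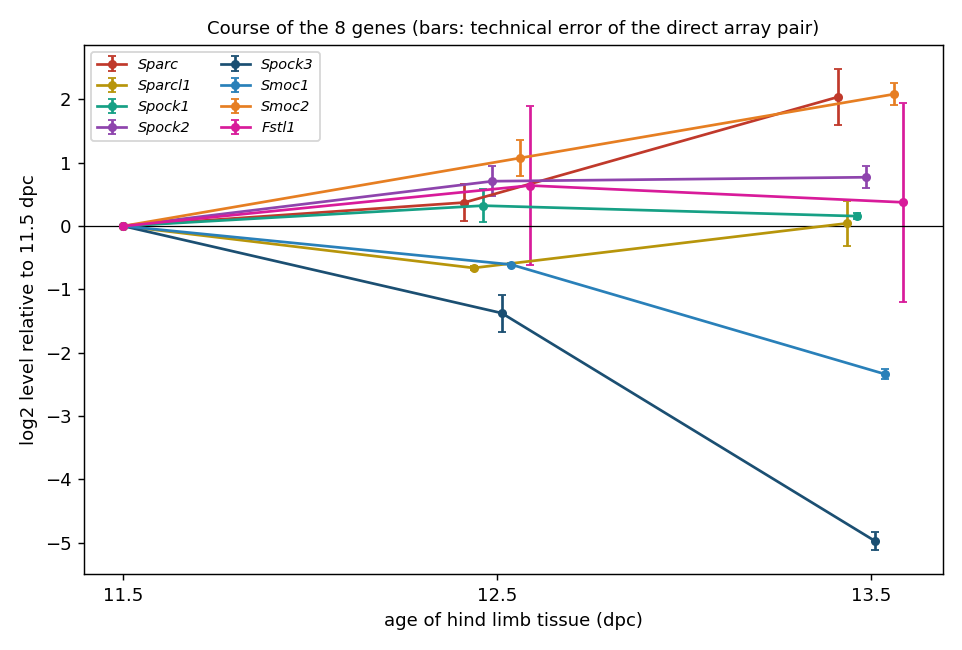
Fitted log2 level of each of the 8 genes (vertical axis) at 11.5, 12.5 and 13.5 dpc (horizontal axis), drawn relative to 11.5 dpc, with bars for the technical error and points shifted slightly sideways to separate them. Spock3 ends at -4.98 and Smoc1 at -2.34, Sparc and Smoc2 end at 2.04 and 2.08, and Sparcl1 returns to within 0.04 of its start after a dip at 12.5 dpc.

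The 3 testicans did not share a course. Spock3, which encodes testican-3, a heparan sulfate proteoglycan, had the largest difference in the family. Its log2 ratios were -4.76 and -5.04 on the arrays of 13.5 against 11.5 dpc. Those of 13.5 against 12.5 dpc were -4.46 and -2.90, and those of 12.5 against 11.5 dpc were -1.74 and -1.16. Every array gave a lower level at the later age, and the pair for the later step was the most widely spaced of the 3. The fitted log2 difference between 13.5 and 11.5 dpc was -4.98 with a technical error of 0.14, and 0.0105% of all genes had a value below it. Set to 1 at 13.5 dpc, the Spock3 level was 12.1 at 12.5 dpc and 31.5 at 11.5 dpc. The later step held 72.4% of the log2 difference, at -3.60, and the earlier step was -1.37, short of 3-fold. In pooled tissue a lower value can stand for fewer cells that express a gene or for less RNA in each of them, and these cannot be told apart. Spock3 was measured by a single spot, which was not marked dim. That mark needs a small signal at both ages compared, so it does not show how bright the spot was at 13.5 dpc.

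Spock1, which encodes testican-1, lay close to its starting level at every age. Its log2 ratios were 0.58 and 0.07 at 12.5 against 11.5 dpc, 0.20 and 0.11 at 13.5 against 11.5 dpc, and 0.16 and -0.48 at 13.5 against 12.5 dpc. The last pair straddled 0, and the fitted differences of 0.32, 0.16 and -0.17 on the log2 scale were all within 3-fold. Of its 2 spots, 1 was dim, with deposited values that are ratios of small whole numbers on all 6 arrays. The spot not marked dim gave 0.27, 0.19 and -0.08 for the same 3 comparisons.

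Spock2, which encodes testican-2, gave log2 ratios of 0.83 and 0.36 at 12.5 against 11.5 dpc and of 1.06 and 0.70 at 13.5 against 11.5 dpc. The arrays of 13.5 against 12.5 dpc gave 0.32 and -0.41. The first 2 comparisons were above 0 on both arrays and the last was not. The fitted log2 difference between 13.5 and 11.5 dpc was 0.77 with a technical error of 0.18. It is an average over 3 spots that disagreed, since 1 spot gave 1.81 and passed 3-fold while the others gave 0.26 and 0.24. For the earlier step the 3 spots were close, at 0.80, 0.64 and 0.68, and they parted in the later step, where the first gave 1.01 and the others -0.39 and -0.44. The 1.81 and 0.26 came from spots annotated to the same transcript, so the annotation does not separate them. The paper lists that transcript among its genes changed more than 3-fold between 11.5 and 13.5 dpc. Of its spots here only the one at 1.81 passed 3-fold, and their mean was 1.03. The log2 ratios of Spock1 and Spock2 exceeded that of Spock3 on 6 of 6 arrays, least on the second array of 12.5 against 11.5 dpc, by 1.23 and 1.52. Between 11.5 and 13.5 dpc the ratio of Spock2 to Spock3 changed 53.7-fold and that of Spock1 to Spock3 35.1-fold.

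**Figure D3:**
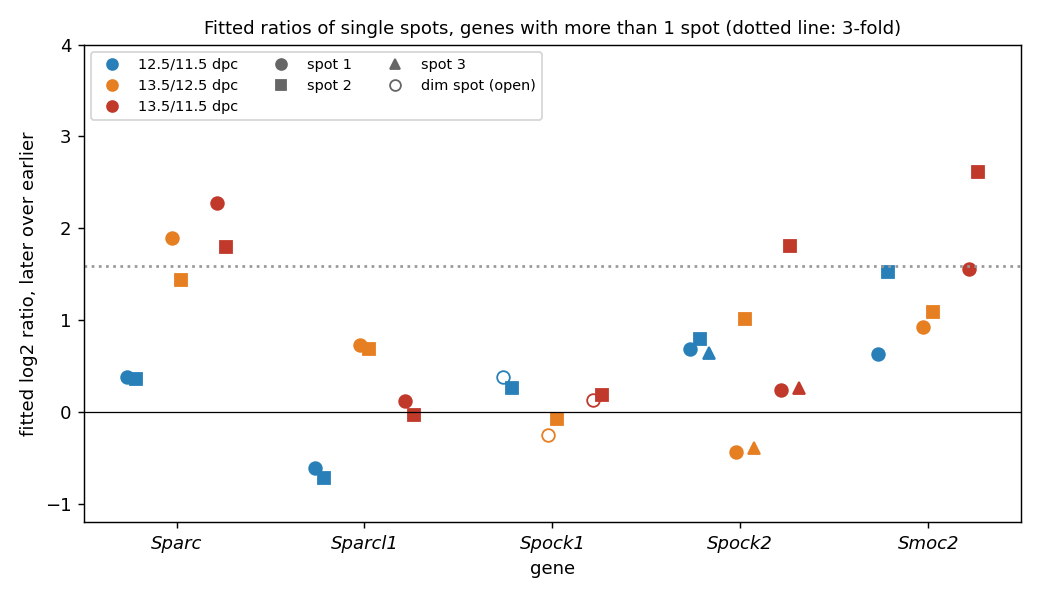
Fitted log2 ratio of the later over the earlier age (vertical axis) for each spot of the 5 genes with more than 1 spot, with colours for the 3 pairs of ages, marker shapes for the spots, open markers for the dim spot and a dotted line at 3-fold. For 13.5 against 11.5 dpc (red) the 2 Smoc2 spots at 1.56 and 2.61 lie on either side of the line, and 1 of 3 Spock2 spots lies above it.

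Smoc1 and Smoc2 encode closely related secreted proteins with thyroglobulin-type and follistatin-like domains, and they went opposite ways. SMOC1 acts as a BMP inhibitor in frog embryos, and human SMOC1 mutations cause malformations of the eyes and limbs. The log2 ratios of Smoc1 were -2.30 and -2.47 at 13.5 against 11.5 dpc. They were -1.98 and -1.38 at 13.5 against 12.5 dpc and -0.57 and -0.54 at 12.5 against 11.5 dpc. After centring, the 2 arrays of 12.5 against 11.5 dpc were the most closely matched in the family, with a technical error of 0.02. The first of them lay below 0 only after centring, since its -0.57 is smaller in size than the subtracted median of 0.725. Without centring the fitted earlier step was -0.16. The fitted log2 difference between 13.5 and 11.5 dpc was -2.34 with a technical error of 0.09, of which the later step held 74.0%. Taking 13.5 dpc as 1, the Smoc1 level was 3.31 at 12.5 dpc and 5.05 at 11.5 dpc. All Smoc1 values come from a single spot.

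Smoc2 gave log2 ratios of 2.00 and 2.35 at 13.5 against 11.5 dpc. They were 0.70 and 1.26 at 12.5 against 11.5 dpc and 0.83 and 1.00 at 13.5 against 12.5 dpc. All 6 arrays had the higher level at the later age, and neither step alone reached 3-fold. The fitted log2 difference over the whole interval was 2.08 with a technical error of 0.18. After centring this difference was divided almost evenly, the later step holding 48.4%. Without centring the earlier step was 1.52 and the later step 0.73. Relative to 11.5 dpc the level was 2.11 at 12.5 dpc and 4.23 at 13.5 dpc. The 2 Smoc2 spots agreed in direction at each step but not in size, with 1.56 and 2.61 over the whole interval, so that the call rests on their mean. On the direct arrays of that interval 1 spot gave 1.10 and 2.33 and the other 2.90 and 2.38. These gaps ran opposite ways and partly cancelled in the mean, so the technical error of 0.18 understates the spread of the single spots. The log2 ratio of the later over the earlier age was higher for Smoc2 than for Smoc1 on 6 of 6 arrays, and between 11.5 and 13.5 dpc the ratio of Smoc2 to Smoc1 changed 21.4-fold, with log2 gaps of 4.30 and 4.83 on the direct arrays.

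Fstl1 encodes a secreted follistatin-like glycoprotein that antagonizes BMP signalling in the mouse and is needed for normal lung and skeletal development. Its log2 ratios were 2.00 and -0.51 at 12.5 against 11.5 dpc, 1.84 and -1.30 at 13.5 against 11.5 dpc, and 1.12 and -1.44 at 13.5 against 12.5 dpc. In every pair the array with the later age in Cy5 was above 0 and its dye swap was below 0. The mean Cy5 over Cy3 log2 ratio of Fstl1 over the 6 arrays, which would be near 0 without a dye offset, was 1.37, higher than 99.6% of genes. The fitted log2 differences of 0.64, 0.37 and -0.27 were all smaller than the technical errors of 1.25, 1.57 and 1.28, so the direction for Fstl1 could not be read from these arrays. Fstl1 was also measured by a single spot. The other 7 genes had dye offsets between -0.31 and 0.26.

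**Figure D4:**
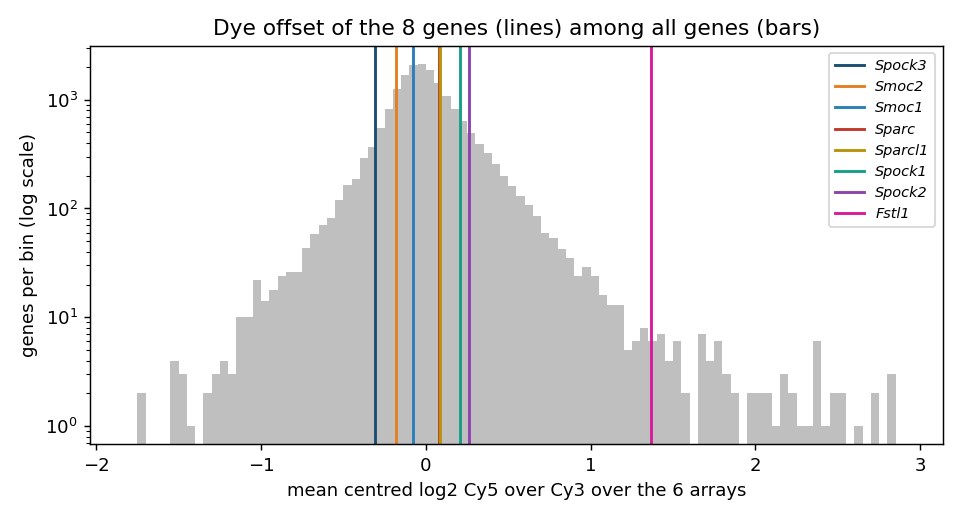
Mean centred log2 Cy5 over Cy3 across the 6 arrays (horizontal axis) for all genes (bars, number of genes on a log axis) and for the 8 family members (lines). Fstl1 lies at 1.37, and the other 7 members lie between -0.31 and 0.26.

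Counted over the family, 2 of 8 genes were called higher at 13.5 than at 11.5 dpc, where 2.93% of all genes were, and 2 of 8 were called lower, where 2.57% were. From 11.5 to 12.5 dpc no member was called in either direction, against 1.24% of all genes higher and 0.299% lower. From 12.5 to 13.5 dpc 1 member, Sparc, was called higher and 2, Spock3 and Smoc1, lower, against 1.35% and 0.776% of all genes. The genes were picked with these comparisons in view, so nothing is read from the shares. The median log2 difference of the 8 genes between 13.5 and 11.5 dpc was 0.27, against 0.07 over all genes, and the median size without regard to sign was 1.40 against 0.42. The median technical error was 0.177 in the family and 0.193 over all genes for that comparison, but higher in the family for both single steps, at 0.267 against 0.177 for 12.5 over 11.5 dpc and 0.308 against 0.201 for 13.5 over 12.5 dpc.

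**Figure D5:**
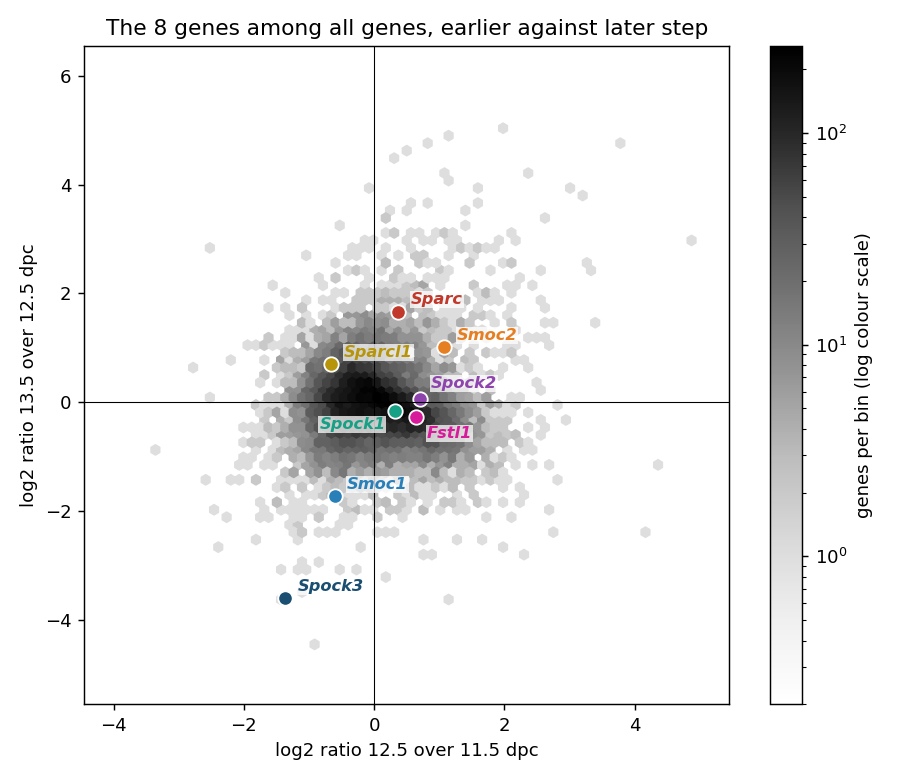
Fitted log2 difference of the earlier step, 12.5 over 11.5 dpc (horizontal axis), against that of the later step, 13.5 over 12.5 dpc (vertical axis), with all genes as grey bins shaded by number on a log colour scale and the 8 members as coloured points. Spock3 lies at -1.37 and -3.60, near the lower edge of the genes, while Sparc and Smoc2 lie above 0 in both steps and Sparcl1 is below 0 in the first and above 0 in the second.

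For each of the 4 called genes, the 3 genes with the most similar log2 ratios on the 6 arrays were identified among 18425 genes by the root mean square difference. Nearest to Spock3 were Pcdh8, a protocadherin of early mesoderm, at 0.54, Gas1, a membrane protein that takes part in hedgehog signalling, at 0.54, and Sfrp2, a secreted Wnt-binding protein, at 0.70. Their log2 differences between 13.5 and 11.5 dpc were -4.55, -4.62 and -4.20, and that of Spock3 was -4.98. Nearest to Sparc were Ccn4, a matricellular protein also known as WISP1, at 0.22, the lysosomal protease gene Ctsz at 0.23 and the membrane protein gene Tmem120a at 0.24. Smoc1 lay closest to Tmem200a at 0.18, Taf1 at 0.18 and Pf4 at 0.19. Smoc2 lay closest to Rab7b at 0.13, Rpl39l at 0.15 and Nim1k at 0.18. These distances describe likeness over 6 arrays from 3 pools and nothing else.

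Among 15 other genes with a follistatin-like domain, 3 were called higher and 1 lower at 13.5 than at 11.5 dpc, with a median log2 difference of 0.02. Higher were Htra1, a secreted serine protease, at 2.84, Kazald1, a secreted protein of bone, at 2.72 and Fst, the activin antagonist follistatin, at 2.38. Lower was the transmembrane protein gene Tmeff2, at -1.63. Of 16 genes for collagens and other partners of SPARC, 5 were called higher and none lower, with Col1a1 at 3.57, Col11a1 at 3.49 and Col11a2 at 3.15, and a median of 0.20. Sparc at 2.04 lay below these 3 collagens in the size of its log2 difference.

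Of 25 measured genes of the BMP pathway around the SMOC proteins and FSTL1, 2 were called higher and 2 lower, with a median log2 difference of -0.31. The ligand genes Bmp7 and Bmp6 were higher, at 3.66 and 2.69. The BMP antagonist gene Grem1 and the receptor gene Bmpr1b were lower, at -3.28 and -3.04. Among 15 measured proteases and inhibitors, a list drawn up around the testicans, 3 were higher and none lower, with a median of 0.34. A place on the list does not mean that a testican acts on the product of that gene. The 3 higher genes were Mmp9, a gelatinase, at 3.44, Ctsk, which encodes cathepsin K, at 2.61 and Timp1, an inhibitor of metalloproteases, at 1.67.

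The tissue labels were compared with marker genes. Of 15 chondrocyte markers, 14 were called higher at 13.5 than at 11.5 dpc, with a median log2 difference of 3.78, and all 12 markers of condensation and limb mesenchyme were below 0, with a median of -1.15 and 4 called lower. RNA of markers of other cell types also differed between the pools. All 6 measured erythroid markers were below 0, with a median of -2.73 and a range from -5.02 to -0.97, while 4 of 13 skeletal muscle markers and 3 of 9 perichondrium and osteoblast markers were called higher, with medians of 0.64 and 0.78. The 4 muscle genes were Myh3 at 3.03, Tnni2 at 2.77, Acta1 at 1.98 and Tnnt3 at 1.61. From the low and little-changed signal of the myogenic marker Myod1, the paper proposes that contamination by muscle precursors was not significant. Here too Myod1 changed little, at 0.15 with a technical error of 0.55. The markers listed here moved beside Sparc, Smoc1, Smoc2 and Spock3, and their part in those differences was not tested.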

How the data were processed

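The deposited values are log2 ratios of Cy5 over Cy3 per spot, which the authors made from 2-colour Agilent whole mouse genome arrays scanned with GenePix Pro. Their methods name print-tip loess normalization in limmaGUI, but array medians of -0.355 to 0.725 lay away from 0. Values beyond 16 in size were set missing, array medians were subtracted, and ratios were turned to later over earlier age from the dyes in the labels. For each spot 2 differences were fitted by least squares over 6 arrays, and spots of a gene were averaged (Python 3.11.15, numpy 2.4.6, pandas 2.3.3). The fit was checked on simulated data. A spot is dim where the value on at least 2 arrays is the log2 of 1 whole number over another, neither above 12 (within 0.0006), as in 15135 of 45220 spots. The authors' intensities were not used here, and the small number of arrays limits precision. The dye swaps share 1 RNA pool per age, so no test was run. Named genes are the 8 members, the 3 nearest genes of each member past 3-fold, and up to 3 genes per list and direction with the largest difference between 13.5 and 11.5 dpc. Members and lists were chosen with earlier results of these data known. Alternatives changed centring, scaling, dye combination, path through the arrays, spots, threshold and arrays left out.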

Additional observations from a re-analysis of the deposited data

Results flagged for a closer look

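After centring, Sparcl1 was the member whose steps went opposite ways on every array concerned. Both arrays of 12.5 against 11.5 dpc were below 0 and both arrays of 13.5 against 12.5 dpc were above 0. The later step minus the earlier step came to 1.37 on the log2 scale, from fitted differences of -0.66 and 0.70. The signs of the fitted steps were the same without centring, where the steps were -0.21 and 0.43. The first array of 12.5 against 11.5 dpc lay below 0 only after centring, since its -0.69 is smaller in size than the subtracted median of 0.725. With 1 RNA pool per age the difference was not tested.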

How the results depend on the processing

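Between 13.5 and 11.5 dpc Sparc, Smoc2, Spock3 and Smoc1 stayed past 3-fold under all 17 alternatives to the fit, with log2 ranges of 1.81 to 2.26, 1.84 to 2.32, -5.24 to -4.71 and -2.42 to -2.17. Alternatives that chose among spots or took their median left these 4 values unchanged, so they could not move the calls. No alternative took a single spot of Smoc2, and 1 of its 2 spots gave 1.56, short of 3-fold. The calls within single steps were less stable. With a 2-fold threshold, 1 member (Smoc2) was higher and 1 (Spock3) lower at 12.5 than at 11.5 dpc, and 2 (Sparc and Smoc2) were higher at 13.5 than at 12.5 dpc. With a 4-fold threshold, the last comparison had 0 higher and 1 lower (Spock3), and with dye combination 2 alone also 0 higher and 1 lower (Spock3). The shares of all genes called under the alternatives were not computed, so nothing is read from these counts about the family. Without centring, 0 were higher at 13.5 than at 12.5 dpc, and likewise 0 with centring on spots that are not dim, an alternative chosen after seeing the data. Leaving out 1 array at a time gave 0 to 1 members lower at 12.5 than at 11.5 dpc, where Spock3 reached -1.59 without the first array of 13.5 against 12.5 dpc, and 0 to 1 higher at 13.5 than at 12.5 dpc. Fstl1 between 13.5 and 11.5 dpc went from -1.52 with dye combination 2 alone to 2.26 with dye combination 1 alone, and Spock2 in the later step changed sign in 8 of 17 alternatives. Without centring, the median of all genes moved from 0.07 to 0.24 for 13.5 against 11.5 dpc, from -0.01 to 0.44 for 12.5 against 11.5 dpc and from -0.04 to -0.32 for 13.5 against 12.5 dpc. The share of a difference held by each step therefore depended on centring. Uncentred earlier and later steps were 0.82 and 1.39 for Sparc, -0.93 and -3.88 for Spock3, and -0.16 and -2.01 for Smoc1. No paired analysis was possible because both arrays of a pair share their RNA pools and no test was run.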

Other observations

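Testicans carry glycosaminoglycan chains, and the enzymes that build such chains were measured on the same arrays. Of 25 measured genes of proteoglycan chain synthesis, 4 were called higher and none lower at 13.5 than at 11.5 dpc, and 21 lay above 0, with a median log2 difference of 0.52. Csgalnact1, which starts chondroitin sulfate chains, was at 4.52, and Chpf and the sulfotransferase gene Chst11 were at 2.11 and 2.08. Of 6 tendon markers 1, Thbs4, was called higher, at 3.60, and the ectoderm list of 8 genes had none called in either direction, with a median of 0.01.

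Of 9 pericyte and smooth muscle markers, 1, Notch3, was called lower at 13.5 than at 11.5 dpc, at -1.66, and of 8 measured macrophage markers 1, Mrc1, was called lower, at -2.01 from dim signal. Of 8 measured Schwann cell and neural markers 1, S100b, was called higher, at 7.02, and chondrocytes also express this gene.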
